A study of Homo sapiens with 6 samples.

Results

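The secretory carrier membrane proteins (SCAMPs) were followed in the human melanoma cell line A2058 after silencing of the cancer/testis antigen CT16. All probes annotated to SCAMP1, SCAMP2, SCAMP3, SCAMP4 or SCAMP5 were taken, which gave 6 probes for 5 of the 16225 named genes on the array. SCAMP3 had 2 probes, here called the bright and the dim probe after their signal, and the other 4 genes had 1 probe each. The family was chosen from the SCAMP3 value in the same CT16 siRNA against control siRNA comparison that is described here. The differences between the groups are thus given as descriptions of the members, with no test.

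The SCAMPs are integral membrane proteins that span the membrane several times and move in the vesicles that travel between the Golgi complex, endosomes and the cell surface. SCAMP1, SCAMP2 and SCAMP3 carry repeats of the NPF motif at the amino terminus, which bind EH-domain proteins of the clathrin coat, whereas SCAMP4 and SCAMP5 lack these repeats. SCAMP3 also binds the ubiquitin ligase NEDD4 and the ESCRT subunit TSG101, and it acts in the sorting of the epidermal growth factor receptor between recycling and degradation.

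Total RNA was taken 48 h after treatment with CT16 siRNA or control siRNA, from 3 separate cultures per group, and each RNA was hybridized on its own Illumina Sentrix Human-6 array. The cells of both groups were otherwise untreated A2058 cells, and the model is a single cell line with a transient siRNA. CT16 is encoded by PAGE5, whose probe was not above background on any of the 6 arrays (signal 151.7 to 194.8), so the silencing could not be checked on them. The paper describes A2058 cells as CT16 positive and reports the silencing from separate measurements of CT16 mRNA. Of 6 melanocyte lineage markers on the array, 5 were above background on at least 3 arrays, among them PMEL (signal 2628.8 to 4004.9) and SOX10 (2836.4 to 4386.6). S100B passed with a dim signal (183.7 to 210.4, above background on 4 arrays), and the MLANA probe did not pass. None of the markers of leukocytes and neurons on the array was above background on at least 3 arrays. The same held for the epithelial EPCAM, KRT5 and CDH1 and the endothelial CDH5, whereas KRT19 and PECAM1 passed with dim signals (186.9 to 235.5 and 181.4 to 249.4). Between 11311 and 13110 of 47289 probes per array were above background, at a detection p-value under 0.05, and the median signal was 164.4 to 190.6. CT16 siRNA replicate 1 stood apart on the first principal component (71.8% of the variance), with a score of 37.53 against -21.13 to 9.03 on the other arrays.

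Of the 5 genes, SCAMP3 (bright probe), SCAMP2 and SCAMP4 were above background on all arrays, SCAMP1 was near background and SCAMP5 was not measured. The bright SCAMP3 probe had the second lowest difference of all 12082 probes above background on at least 3 arrays, and its groups were fully separated. SCAMP4, SCAMP2 and the dim SCAMP3 probe had smaller negative differences (-0.42 to -0.32, against -1.08 for the bright SCAMP3 probe), and their groups overlapped. SCAMP1 had a small difference of the opposite sign. Probes differ in how well they hybridize, so the level of a probe is set here only against the same probe on other arrays.

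The signal of the bright SCAMP3 probe was 7523.2, 10136.4 and 9190.5 in control siRNA replicates 1, 2 and 3, and 3436.6, 4971.4 and 4730.5 in CT16 siRNA replicates 1, 2 and 3. All CT16 siRNA arrays were below all control siRNA arrays, before as well as after quantile normalization. On the normalized log2 scale the probe was at 13.13 ± 0.08 (SD, n = 3) with control siRNA and at 12.05 ± 0.16 (SD, n = 3) with CT16 siRNA. The difference was -1.08 (standard error 0.11), a 2.12-fold lower signal, and the highest CT16 siRNA array lay 0.87 below the lowest control siRNA array on this scale. The 3 CT16 siRNA arrays each carried the difference, at -1.23, -0.92 and -1.10 from the control siRNA mean in replicates 1, 2 and 3. When any single array was left out, the difference was -1.18 to -1.03.

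The dim SCAMP3 probe is annotated to another RefSeq transcript of the gene than the bright one. Its signal was 435.7, 336.0 and 475.5 in control siRNA replicates 1, 2 and 3, and 314.3, 395.8 and 394.0 in CT16 siRNA replicates 1, 2 and 3. The groups overlapped, with control siRNA replicate 2 below CT16 siRNA replicates 2 and 3 in signal. The log2 signal was 8.77 ± 0.17 (SD, n = 3) with control siRNA and 8.44 ± 0.30 (SD, n = 3) with CT16 siRNA, a difference of -0.33 (standard error 0.17). On the quantile-normalized log2 scale the probes of SCAMP3 had the same sign but not the same size of difference. The value of the dim probe rested in part on CT16 siRNA replicate 1, without which it was -0.17. Without CT16 siRNA replicate 3 or control siRNA replicate 2 it was -0.45 or -0.43, with the groups apart. After neqc background correction the dim probe was at -0.57 (standard error 0.36), against -1.11 (standard error 0.10) for the bright probe.

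SCAMP4 is a short member of the family without the NPF repeats. Its signal was 1070.1, 1253.8 and 1364.3 in control siRNA replicates 1, 2 and 3, and 800.1, 1042.4 and 1253.5 in CT16 siRNA replicates 1, 2 and 3. The log2 signal was 10.32 ± 0.08 (SD, n = 3) with control siRNA and 9.90 ± 0.36 (SD, n = 3) with CT16 siRNA, a difference of -0.42 (standard error 0.18). The groups met at their edges, where CT16 siRNA replicate 3 (log2 signal 10.23) was just above control siRNA replicate 1 (10.22). Without CT16 siRNA replicate 1 the difference was -0.23. Without CT16 siRNA replicate 3 or control siRNA replicate 1 it was -0.58 or -0.47, with the groups apart. After neqc it was -0.49 (standard error 0.26).

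SCAMP2 acts in regulated exocytosis, together with the small GTPase ARF6 and phospholipase D. Its signal was 393.5, 492.5 and 445.6 in control siRNA replicates 1, 2 and 3, and 338.3, 406.9 and 447.2 in CT16 siRNA replicates 1, 2 and 3. CT16 siRNA replicate 3 lay within the range of the controls, and the other CT16 siRNA arrays were lower than control siRNA replicates 2 and 3. The log2 signal was 8.86 ± 0.21 (SD, n = 3) with control siRNA and 8.54 ± 0.33 (SD, n = 3) with CT16 siRNA, a difference of -0.32 (standard error 0.18). It was -0.53 after neqc, and leaving out CT16 siRNA replicate 1 or control siRNA replicate 2 gave -0.15 or -0.21. Leaving out CT16 siRNA replicate 3 gave -0.47, with the groups apart.

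SCAMP1 is a broadly expressed member of recycling vesicles. Its signal was 208.8, 197.1 and 207.0 in control siRNA replicates 1, 2 and 3, and 299.1, 215.3 and 209.6 in CT16 siRNA replicates 1, 2 and 3. The probe was above background on 5 of 6 arrays, with control siRNA replicate 1 as the exception (detection p-value 0.0936). CT16 siRNA replicate 1 was the highest array and the other 5 lay close to each other. The log2 signal was 7.67 ± 0.10 (SD, n = 3) with control siRNA and 7.85 ± 0.16 (SD, n = 3) with CT16 siRNA, a difference of 0.18 (standard error 0.12). It was 0.08 without CT16 siRNA replicate 1, but 0.57 after neqc, so that the sign was kept and the size was not settled.

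SCAMP5 is known mainly from brain, where it is found on synaptic vesicles. Its signal was 286.0, 150.4 and 150.0 in control siRNA replicates 1, 2 and 3, and 137.4, 153.1 and 149.3 in CT16 siRNA replicates 1, 2 and 3. Only control siRNA replicate 1 was above background, and on the other 5 arrays the detection p-value was 0.612 to 0.979. The control siRNA mean did not exceed the lower limit of measurable signal, and no fold is given.

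**Figure D1:**
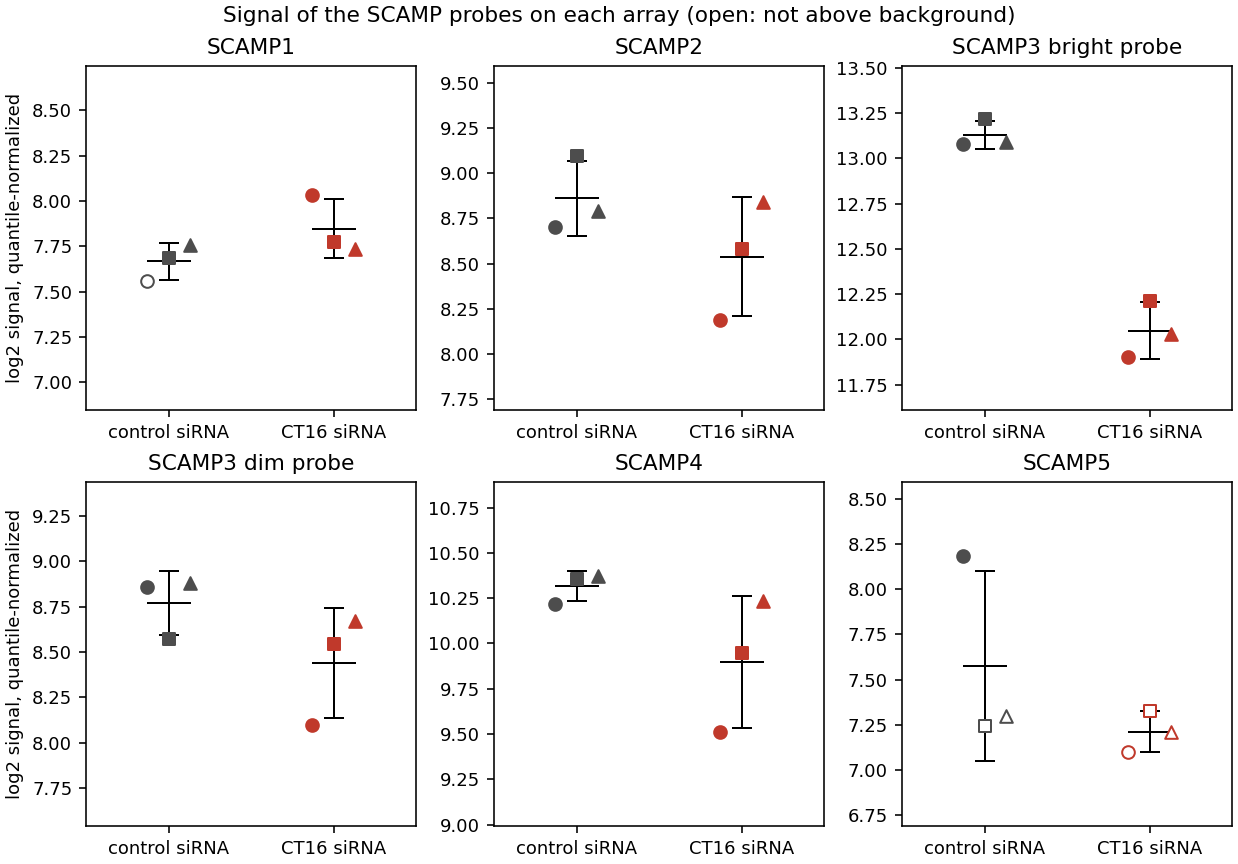
Log2 quantile-normalized signal of the 6 SCAMP probes (y axis, with the same span but a different range in each panel) in the control siRNA (grey) and CT16 siRNA (red) arrays. Circles, squares and triangles are replicates 1, 2 and 3, open symbols are not above background, and lines are mean ± SD (n = 3). The groups are apart for the bright SCAMP3 probe (13.13 against 12.05) and overlap for the other probes.

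The extent to which the family moved together was described by the log2 ratio of the bright SCAMP3 probe to each other SCAMP probe on the same array, a measure that does not depend on a shift common to both probes of an array. Relative to SCAMP1, the bright SCAMP3 probe stood at -1.59, -1.02 and -1.17 in CT16 siRNA replicates 1, 2 and 3, each counted from the control siRNA mean. The mean change of this ratio was -1.26 (standard error 0.18). SCAMP1 was near background, and after neqc the change was -1.68 (standard error 0.39). The ratio to SCAMP2 stood at -0.55, -0.64 and -1.08 in CT16 siRNA replicates 1, 2 and 3, with a mean change of -0.76 (standard error 0.18). The difference of the bright SCAMP3 probe was thus larger than that of SCAMP2 on each CT16 siRNA array. The mean difference of the dim SCAMP3 probe (-0.33) was close to that of SCAMP2 (-0.32). The ratio to SCAMP4 stood at -0.42, -0.55 and -1.02, with a mean change of -0.66 (standard error 0.19). The ratio to the dim probe of the same gene stood at -0.55, -0.69 and -1.0, with a mean change of -0.75 (standard error 0.20).

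In all 4 ratios the CT16 siRNA arrays were below the control siRNA arrays. The ratios share the bright SCAMP3 probe, and the family was chosen from SCAMP3 in this contrast, so they are not 4 separate results. When any single array was left out, the mean changes ranged from -1.38 to -1.11 for SCAMP1, from -0.88 to -0.58 for SCAMP2, from -0.80 to -0.47 for SCAMP4 and from -0.86 to -0.60 for the dim probe. After neqc the groups overlapped in the ratios to SCAMP2 and the dim probe, which then changed by -0.58 (standard error 0.32) and -0.54 (standard error 0.34). On the quantile-normalized scale, the CT16 siRNA arrays took the same order in SCAMP2, SCAMP4 and the dim SCAMP3 probe, with replicate 1 the lowest and replicate 3 the highest. Before normalization replicate 2 of the dim probe (395.8) was slightly above replicate 3 (394.0). The normalized order was the reverse of that of their scores on the first principal component (37.53, 9.03 and -16.45 in replicates 1, 2 and 3). The bright SCAMP3 probe did not follow it, since replicate 2 was its highest CT16 siRNA array. The part that the difference between these arrays plays in the lower values of SCAMP2, SCAMP4 and the dim probe was not tested.

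**Figure D2:**
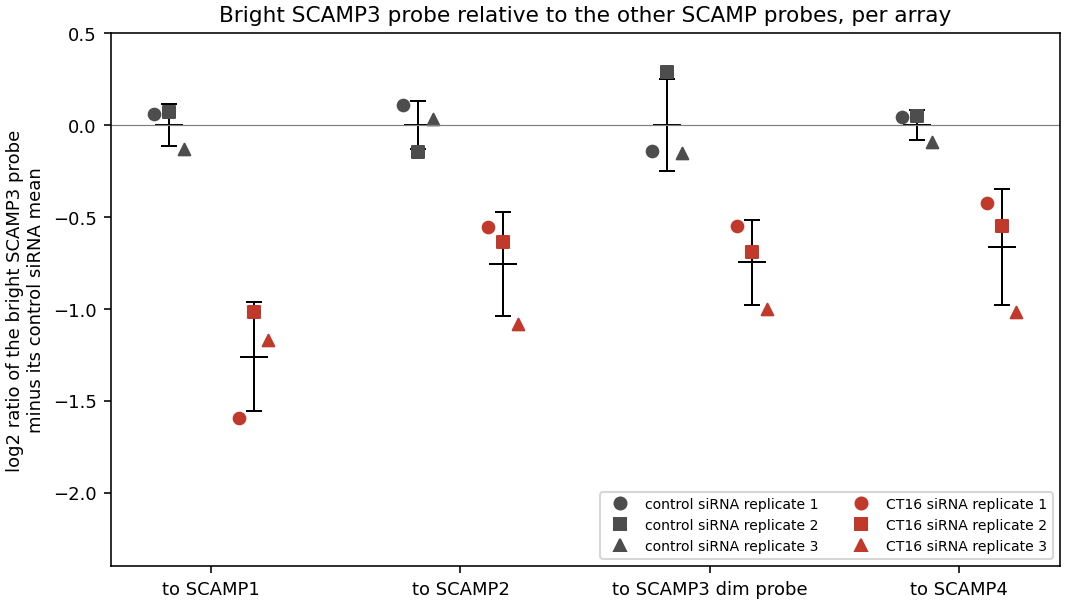
Log2 ratio of the bright SCAMP3 probe to each other SCAMP probe above background, per array, minus the mean ratio of the control siRNA arrays (y axis). Grey and red symbols are control siRNA and CT16 siRNA replicates, and lines are mean ± SD (n = 3). All CT16 siRNA arrays lie below the control siRNA arrays, with mean changes of -1.26 to SCAMP1, -0.76 to SCAMP2, -0.75 to the dim probe and -0.66 to SCAMP4.

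Over all probes, the limma fit called 0 of 12082 probes (0%) at an adjusted p under 0.05, with 0.202 as the lowest adjusted value. At an unadjusted p under 0.05, 1156 probes were found. Of the 5 SCAMP probes in this fit, 0 were called. The rank product, a ranking of the pairwise ratios between the arrays, called 124 of 47289 probes (0.262%) lower and 94 (0.199%) higher at a false discovery rate under 0.05. Of the 6 SCAMP probes, the bright SCAMP3 probe was called lower and 0 were called higher. It stood at position 2 among the lower probes, behind CAPN3, a calcium-dependent protease, and SCAMP4, SCAMP5, the dim SCAMP3 probe and SCAMP2 were at positions 403, 499, 716 and 895. The position of SCAMP5 rests on control siRNA replicate 1, its 1 array above background, and was 14658 without it. Without CT16 siRNA replicate 3, SCAMP4 was also called lower, at position 291, where 490 of 47289 probes were called. After neqc the bright SCAMP3 probe was at position 19 and was not called. As the family was chosen from SCAMP3 in this contrast, the call of its probe describes the choice and is no test of it.

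All CT16 siRNA arrays were below all control siRNA arrays in 1081 of the 12082 probes (8.95%) and above them in 893 (7.39%). Of the 5 SCAMP probes in the fit, 1 was among the former, the bright SCAMP3 probe, and 0 among the latter. As this contrast led to the choice of the family, nothing is read from these shares. The probe next after the bright SCAMP3 probe among the members was SCAMP4, at position 308 from the lowest difference, followed by the dim SCAMP3 probe (625) and SCAMP2 (687). SCAMP1 was at position 9799.

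A shift of each array to a common median, in place of quantile normalization, moved the median difference of all probes to 0.10. SCAMP2, the dim SCAMP3 probe and SCAMP4 were then at -0.13, -0.13 and -0.23, and at -0.23, -0.24 and -0.34 relative to that median. The bright SCAMP3 probe was at -1.0, or -1.11 relative to the median.

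**Figure D3:**
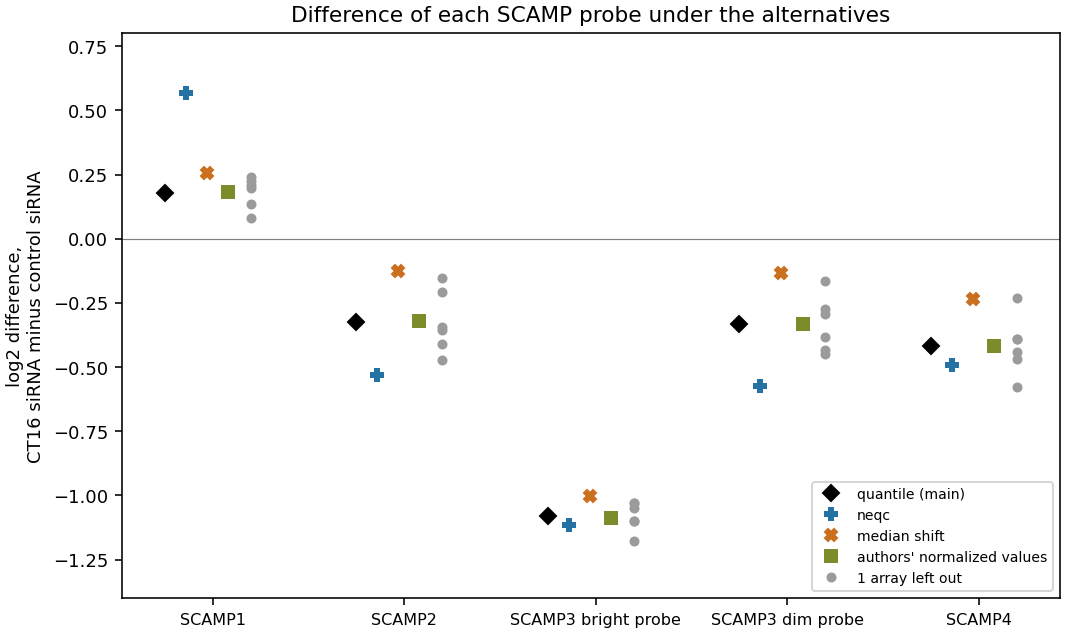
Difference of each SCAMP probe, CT16 siRNA minus control siRNA in log2 signal (y axis), under quantile normalization, neqc background correction, a median shift, the values normalized by the authors, and with each array left out in turn. The bright SCAMP3 probe stays between -1.18 and -1.0, and SCAMP1 moves from 0.18 to 0.57 with neqc.

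The genes next to the SCAMPs were described to show whether a whole locus was lower. In the RefSeq annotation of GRCh38.p14, SCAMP3 lies on the minus strand at chr1:155255981-155262360, between ENTREP3, at a distance of 497 bases, and the kinase gene CLK2, at 507 bases. ENTREP3 differed by -0.12 (standard error 0.11) with overlapping groups, and CLK2 was not above background. SCAMP2 and SCAMP5 lie on the same chromosome, at chr15:74843730-74873365 and chr15:74995563-75021495, with 122197 bases between them. MPI, the mannose phosphate isomerase gene next to SCAMP2, differed by -0.18 (standard error 0.19). RPP25, a ribonuclease P subunit gene beside SCAMP5, differed by -0.16 (standard error 0.20). LHFPL2, beside SCAMP1 (chr5:78360617-78480739), differed by 0.39 (standard error 0.25). ADAT3, a tRNA deaminase gene that overlaps SCAMP4 (chr19:1905399-1926013), differed by -0.02 (standard error 0.17). The groups overlapped for each of these neighbours.

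The 250 bases before the RefSeq start of SCAMP3 (GRCh38.p14, minus strand, chr1:155262361-155262610) are shown here. The bright SCAMP3 probe was the member probe with the separated groups, and these bases fill much of the space between SCAMP3 and CLK2. Capitals mark matches to the E-box letters CACGTG and CATGTG, searched on both strands, of which the latter reads CACATG here.
SCAMP3 upstream region: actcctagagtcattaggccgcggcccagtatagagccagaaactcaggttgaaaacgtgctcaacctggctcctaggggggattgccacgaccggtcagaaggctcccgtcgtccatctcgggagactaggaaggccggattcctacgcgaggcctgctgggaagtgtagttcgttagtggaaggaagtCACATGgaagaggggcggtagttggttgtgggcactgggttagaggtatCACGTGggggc
The CACGTG match lies 11 to 6 bases before the start and the CACATG match 60 to 55 bases before it. CACGTG was found in 6.34% and CATGTG in 9.42% of 35116 RefSeq upstream regions of the same length. CACGTG was not found in the windows of the other 4 SCAMP genes, and CATGTG was found in that of SCAMP4. The GC box GGGCGG was found in all 5 windows and in 42.6% of all regions. These letters were chosen after the sequence had been seen, and a match is no proof of a binding site.

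The genes that work with the SCAMPs in vesicle traffic were described as lists with 1 probe per gene, and limma called 0 genes in each list. Over the 8909 named genes above background the median difference was -0.00, the CT16 siRNA arrays were all below the controls in 870 genes and all above them in 651, and the rank product called 103 lower and 69 higher. Of the synaptophysin and synaptogyrin relatives of the SCAMPs, 3 of 7 listed genes were above background, and their median difference was -0.09. SYNGR1 differed by -0.18 (standard error 0.15), SYNGR2 by -0.09 (standard error 0.22) and SYPL1 by 0.01 (standard error 0.13).

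The clathrin coat and its EH-domain adaptors hold the proteins that read the NPF repeats. Of 29 listed genes, 24 were above background, with a median difference of -0.08, and 0 were called by the rank product. The CT16 siRNA arrays were all below the controls in 4 genes and all above them in 0. AP2S1, the small subunit of the AP2 adaptor, was the lowest at -0.39 (standard error 0.11, groups apart), followed by EHD4, an EH-domain protein of endosomes, at -0.31 (standard error 0.18). PICALM, an assembly protein of clathrin, was the highest at 0.30 (standard error 0.14), followed by EPS15, an EH-domain endocytic adaptor, at 0.21 (standard error 0.14). Both intersectin genes, ITSN1 and ITSN2, whose products bind SCAMP1, were not above background.

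The ESCRT and receptor sorting genes include the binding partners of SCAMP3. Of 24 listed genes, 21 were above background, with a median difference of -0.03, and the CT16 siRNA arrays were all below the controls in 2 and all above them in 4. TSG101, the ESCRT-I subunit that SCAMP3 binds, was the lowest of the list. It was at 10.46 ± 0.09 (SD, n = 3) with control siRNA and 9.80 ± 0.25 (SD, n = 3) with CT16 siRNA on the log2 scale, a difference of -0.66 (standard error 0.14). Its groups did not overlap, with control siRNA at 10.40 to 10.57 and CT16 siRNA at 9.51 to 9.98. It was the 1 gene of the list that the rank product called lower, against 103 of the 8909 named genes above background. The lists were chosen with earlier results of these data known, so nothing is read from this call. VPS28, also of ESCRT-I, differed by -0.41 (standard error 0.25). CHMP5, an ESCRT-III protein, had the opposite sign, at 0.62 (standard error 0.24, groups apart), as did VPS4B, the ATPase that takes ESCRT-III apart, at 0.48 (standard error 0.18, groups apart). NEDD4 differed by 0.33 (standard error 0.18) and HGS, the ESCRT-0 subunit that captures ubiquitinated receptors, by -0.03 (standard error 0.15). The EGFR probe was not above background.

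Of 27 listed SNARE genes of post-Golgi and recycling traffic, 22 were above background, with a median difference of 0.01. The CT16 siRNA arrays were all below the controls in 1 and all above them in 2. VAMP5, a vesicle SNARE, was called lower by the rank product at -0.65 (standard error 0.29), but its groups overlapped. STX6, a syntaxin of the trans-Golgi network, differed by -0.38 (standard error 0.11, groups apart). VAMP7, a SNARE of late endosomes, differed by 0.51 (standard error 0.27) and SNAP23, the plasma membrane partner of many vesicle SNAREs, by 0.48 (standard error 0.11, groups apart).

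The regulators that act with SCAMP2 in exocytosis had 8 of 11 listed genes above background, with a median difference of -0.05. The CT16 siRNA arrays were all below the controls in 2 of these genes and all above them in 0. ARF6, near background and above it on 3 of 6 arrays, differed by 0.21 (standard error 0.11), and the lipid kinase gene PIP5K1A by 0.10 (standard error 0.12). CYTH2, an exchange factor of ARF GTPases, differed by -0.40 (standard error 0.22) with overlapping groups, and CYTH3, its relative, by -0.24 (standard error 0.09, groups apart).

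**Figure D4:**
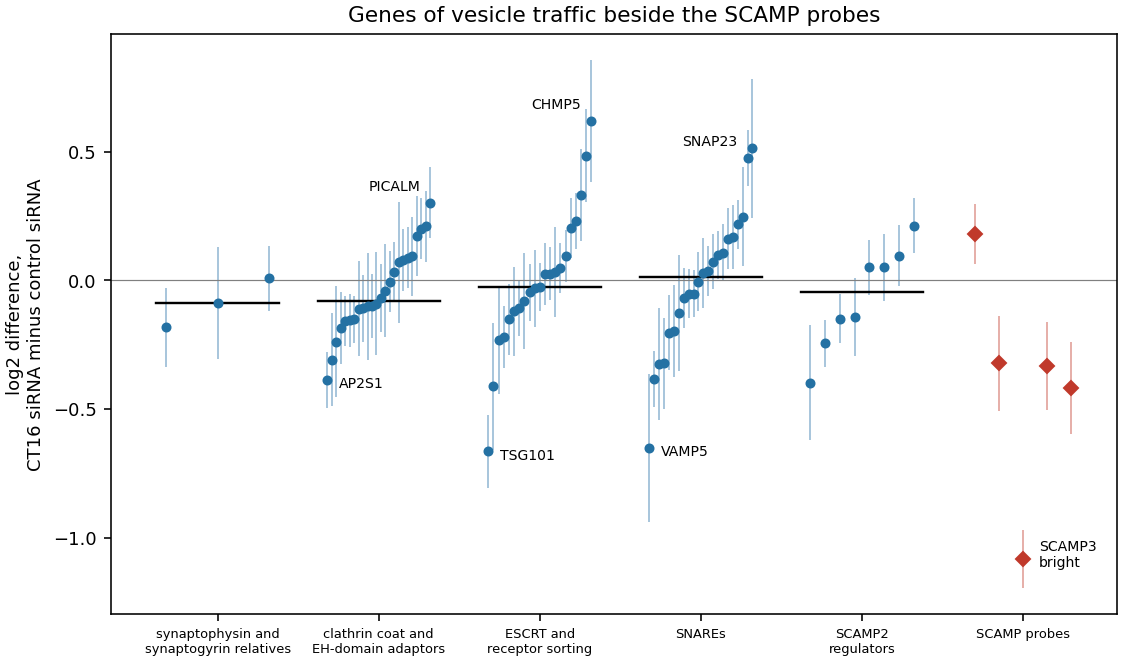
Difference between CT16 siRNA and control siRNA in log2 signal (y axis) for the genes above background in each list of vesicle traffic (blue, sorted by value) and for the 5 SCAMP probes in the limma fit (red). Thin lines are the standard error of the limma fit and black bars the median of a list. The bright SCAMP3 probe (-1.08) lies below every gene of the lists, of which TSG101 (-0.66) is the lowest.

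The pattern of the bright SCAMP3 probe over the arrays was set against 7518 probes of named genes that were above background on all 6 arrays. Over the 6 arrays, 215 of them had a Pearson correlation of at least 0.9 with it, and the most like were PA2G4 (0.99), SDC1 (0.99), COX5A (0.99), FAR2 (0.99) and MTFMT (0.99), the last 3 of which encode a subunit of cytochrome c oxidase, a fatty acyl-CoA reductase and the mitochondrial formyltransferase of the initiator tRNA. Since the bright SCAMP3 probe separated the groups, these genes also had lower values with CT16 siRNA. SDC1, which encodes the heparan sulfate proteoglycan syndecan 1, differed by -0.72 (standard error 0.11) and PA2G4, a growth-regulating RNA-binding protein, by -0.43 (standard error 0.09). Over deviations from the group means, 60 probes reached 0.9, and the most like were CTPS1 (0.99), EXOC4 (0.98), POLR1E (0.98), IFT70A (0.98) and PSAT1 (0.97). EXOC4 is a subunit of the exocyst, which tethers vesicles at the plasma membrane, and differed by -0.17 (standard error 0.10). The points of these correlations share their array, and their number is small.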

How the data were processed

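Gene expression was measured in A2058 cells 48 h after CT16 siRNA (siRNA1 per the methods) or control siRNA, with 3 separate cultures per group per the series' design text. Samples were grouped by their labels. The overexpression experiment in another cell line was not analysed here.

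For each probe and array, the authors deposited the mean signal intensity of its beads on a linear scale, without normalization, and a detection p-value that sets the signal against the negative control beads. A further deposited column holds the intensity after the authors' quantile normalization in Bioconductor. The bead summary software, background subtraction and probe genome build were not given in the sources used here. Of 47296 probes, 7 had no value, 18468 had 1 gene symbol in the platform annotation and 28821 were unnamed here. Upstream sequences and gene positions were taken from RefSeq tables (GRCh38.p14), and upstream regions matched all 5 SCAMP genes.

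The non-normalized signal was log2-transformed and quantile-normalized over the 6 arrays. Differences and standard errors of single probes came from limma 3.58.1 in R 4.3.3 (lmFit, eBayes and Benjamini-Hochberg adjustment) on the 12082 probes with a detection p-value under 0.05 on at least 3 of 6 arrays. Standard errors of the ratios came from the spread within groups. The rank product was written anew after the published algorithm (RankProd was not used), with 9 pairwise ratios, 100 permutations within arrays and all 47289 probes. Both steps were tested on simulated data. The number of arrays limits the precision.

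The members and gene lists were chosen with earlier results of these data known. The named genes were all SCAMP probes, the 2 largest rises and falls per list, the genes next to each SCAMP gene, the 5 genes most like SCAMP3 by each measure, PAGE5 and the lineage markers. NEDD4, HGS, EGFR, ITSN1 and ITSN2 were named for their binding partners, and CAPN3 for its position. Alternatives were neqc (offset 16), a median shift, the authors' normalized values, other filters, an intensity trend with a robust fit, the replicate block and each array left out. Python 3.11.15 with matplotlib 3.10.9 made the plots.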

Additional observations from a re-analysis of the deposited data

How the results depend on the processing

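None of the 5 SCAMP probes in the limma fit, and none of the 4 SCAMP3 ratios, changed its sign under the alternatives run. SCAMP5, which was above background on 1 array, was given no difference. Of 114 alternative values, 102 stayed within the spread between replicates, or within 1.5 times for a count, and 12 did not. Among the 102 were the replicate block values of the SCAMP probes and ratios, which equal the main values by construction. They also held the authors' normalized values, which are quantile-normalized like the main values. SCAMP2 at -0.13 after a median shift, against -0.32, also counted as within the spread. After neqc, SCAMP1 differed by 0.57 and the ratio of the bright SCAMP3 probe to SCAMP1 by -1.68. Against 124 probes, the rank product called 12 lower after neqc, 41 after a median shift and 45 if probes below background were not ranked. Leaving out 1 array gave 17 to 490 probes lower by the rank product (20, 19 and 17 without control siRNA replicates 1, 2 and 3, and 153, 64 and 490 without CT16 siRNA replicates 1, 2 and 3). By limma it gave 0 to 313 probes, namely 10 on leaving out CT16 siRNA replicate 1, 313 on leaving out CT16 siRNA replicate 3 and 0 on each other omission. The bright SCAMP3 probe was at positions 1 to 19 of the lower probes in these rankings. The cause was not tested.

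Same-numbered arrays were not consistently alike, as their deviations from the group means correlated at 0.42, 0.02 and -0.41. Those of differently numbered arrays correlated at -0.67 to 0.68. With 3 arrays per group, these values cannot show whether the cultures were handled in pairs. With the replicate block, limma called 0 probes and the rank product 107 lower, and the SCAMP differences were the same by construction (-1.08 for the bright SCAMP3 probe). A slide block was not run, since no slide was named. Signal over background limits SCAMP5 and SCAMP1 most, which were above background on 1 and 5 of 6 arrays.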

Other observations

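Over the 6 arrays the correlation with the bright SCAMP3 probe was 0.75 for SCAMP4, 0.67 for SCAMP2, 0.67 for the dim SCAMP3 probe, 0.48 for SCAMP5 and -0.69 for SCAMP1. Over deviations from the group means it was 0.49, 0.62, 0.30, -0.07 and -0.51 in the same order. SCAMP5 was above background on 1 of the 6 arrays and SCAMP1, near background, on 5, which limits their values. These values describe 6 arrays that share their normalization, and no test was made. With 6 arrays, the values cannot rank the other probes by their likeness to the bright SCAMP3 probe.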
